A study of Mus musculus with 4 samples.

Results

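The Foxp3 T cells of the mouse liver were chosen by their counts, as barcodes with at least 1 UMI of Foxp3 and at least 1 UMI of Cd3e, Cd3d and Cd3g together, no UMI of Cd8b1 or Cd79a, and at most 1 UMI of Trdc. The rule kept 463 of 35682 barcodes that had at least 300 detected genes and at most 10% of their counts in mitochondrial genes. The tdTomato+ library held 350 of them among 17509 barcodes, and the tdTomato- library held 113 among 18173. They were set against Cd4 Foxp3-zero T cells, which passed the same gates with at least 1 UMI of Cd4 and none of Foxp3, and which numbered 2067 in the tdTomato+ library and 1263 in the tdTomato- library. Counts of 3 sinusoidal endothelial genes, Stab2, Kdr and Clec4g, then divided each set. Of the Foxp3 T cells, 270 in the tdTomato+ library and 8 in the tdTomato- library carried such counts, and 80 and 105 carried none. Unless said otherwise, the values below are for the 80 and the 105.

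The study traced liver immune cells that descend from endothelium of the yolk sac. By the study's methods, Stab2-CrexERT2; R26-LSL-tdT mice, in which a tamoxifen-inducible Cre is driven from the Stab2 locus, were given tamoxifen at embryonic day 9.5, and CD45+ cells were sorted from the liver at 2 months of age as tdTomato+ or tdTomato-. The sample labels give no treatment (their entry is "no") and name the genotype only as S2 for both sorts, so whether S2 stands for those mice is not settled by the labels. For each sort there was 1 library of gene expression and 1 of gamma-delta T cell receptor contigs, and the labels put the tdTomato+ sort in batch 1 and the tdTomato- sort in batch 2, so sort and batch cannot be told apart. No map from cells to animals was used here, and every share below is a share of the sorted cells and not of the liver.

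Regulatory T cells are CD4 T cells that hold immune responses in check, and the transcription factor Foxp3, encoded on the X chromosome, is needed for their identity. They take up IL-2 through a high-affinity receptor that includes Il2ra (CD25), carry the inhibitory receptor Ctla4, and depend on costimulation through members of the TNF receptor family such as Tnfrsf4 (OX40) and Tnfrsf18 (GITR). In the liver and other tissues, part of them acquires an effector state with the IL-33 receptor Il1rl1, Klrg1 and the repair factor Areg.

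IL-2 acts on Foxp3 through STAT5, so the promoter was searched for the STAT motif TTCNNNGAA on both strands. RefSeq on GRCm38.p6 gave 2 Foxp3 start sites. The window of the first held 0 matches and is not shown, and the window of 250 bases before to 50 bases after the second lies at chrX:7580233-7580532 on the plus strand. It held 1 match, in capitals, starting 139 bases before the start site. The STAT motif was found in 9.55% of all 27025 genes with a RefSeq promoter. Forkhead, AP-1 and Runx motifs, described below, were searched as well and gave no match in either Foxp3 window. The windows of Ctla4, Il2ra and Tnfrsf4, searched for the same motifs, held 0 matches. Binding was not measured.

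Foxp3: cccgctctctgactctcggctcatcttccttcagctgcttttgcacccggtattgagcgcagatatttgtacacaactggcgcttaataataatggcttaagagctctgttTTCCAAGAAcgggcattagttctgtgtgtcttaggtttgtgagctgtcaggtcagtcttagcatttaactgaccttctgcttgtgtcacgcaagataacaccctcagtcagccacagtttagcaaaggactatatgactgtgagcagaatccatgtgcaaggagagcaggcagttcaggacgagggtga

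The libraries held 203366009 and 156771260 UMIs over 17957 and 18444 barcodes (tdTomato+ and tdTomato-), with medians of 8955 and 7128 UMIs. The libraries had 84 barcode sequences in common, which took in 2 of the tdTomato+ Foxp3 T cells and none of the tdTomato- ones, and without these the counts of called genes given below were within 1.5-fold, the furthest being 1184 in place of 1197. The Foxp3 T cells had a median of 6887 UMIs in the tdTomato+ library and 6372 in the tdTomato- library, against 7179 and 7499 in Cd4 Foxp3-zero T cells. Some tdTomato- Foxp3 T cells carried RNA of other cells: 11 of 105 had 5 or more counts of Lyz2 and C1q genes, 9 had 20 or more of Cd74, H2-Aa and H2-Ab1, and 14 had none of Trac, Trbc1 and Trbc2. The numbers were 0, 0 and 3 of 80 in the tdTomato+ library. A lineage filter that left out all cells of these kinds was therefore run beside the rule. It kept 77 tdTomato+ and 81 tdTomato- Foxp3 T cells, against 580 and 1021 Cd4 Foxp3-zero T cells.

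Foxp3 T cells made up 11.4% of Cd4-lineage T cells in the tdTomato+ library (80 of 701, exact binomial 95% interval 9.15 to 14.0%) and 8.48% in the tdTomato- library (105 of 1239, 6.98 to 10.2%). These intervals, like all intervals here, cover counting error only. The Cd4 Foxp3-zero T cells had to hold Cd4 and the Foxp3 T cells did not, and with Cd4 required of both the shares were 8.81% (6.79 to 11.2%) and 4.87% (3.71 to 6.25%). With cells that carried endothelial counts included, and Cd4 required of the Foxp3-zero cells alone, the tdTomato+ share was 14.5% (350 of 2417, 13.1 to 15.95%). The tdTomato- share was then 8.21% (113 of 1376, 6.82 to 9.79%). Foxp3 counts were rarer in other cell types. In the tdTomato+ library, Foxp3 was found in 11.3% of all Cd4 T cells, in 3.19% of CD8 T cells, in 2.00% of gamma-delta T cells, in 0.333% of B cells, in 0.345% of endothelial cells and in 0.503% of macrophages, whose median depths were 12923, 13927, 13894, 6606, 7893 and 12462.5 UMIs. For tdTomato- cells, the shares were 4.90% of Cd4 T cells at a median of 7634 UMIs, 1.41% of CD8 T cells at 8935, 0.739% of gamma-delta T cells at 8122, 0 of 348 B cells at 5828, which allows up to 0.862%, and 0.568% of macrophages at 9911. A cell needed only 1 Foxp3 count, and 26 of the 80 and 30 of the 105 had exactly 1.

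The label was set against genes the rule did not use, of which Ctla4, Il2ra and Tnfrsf4 were chosen with the label as its markers. At least 1 of Ctla4, Il2ra and Tnfrsf4 was detected in 91.2% of tdTomato+ Foxp3 T cells (73 of 80) and in 45.7% of Cd4 Foxp3-zero T cells (284 of 621). On the tdTomato- side, the shares were 87.6% (92 of 105) and 48.3% (548 of 1134). All 3 genes were detected together in 36.2% and 39.0% of Foxp3 T cells (tdTomato+ and tdTomato-), against 1.77% and 1.76% of Cd4 Foxp3-zero T cells. Of the tdTomato+ Foxp3 T cells, 3 had none of Ctla4, Il2ra, Tnfrsf4, Ikzf2 and Tnfrsf18, and 6 of the tdTomato- ones had none. Cd4 itself was detected in 75.0% of the tdTomato+ and 55.2% of the tdTomato- Foxp3 T cells, and Cd8a in 1 and 5 cells.

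Cells on either side of the Foxp3 threshold are given as a description. Those with no Foxp3 count were the Cd4 Foxp3-zero T cells, so all of them held Cd4. Of cells with 1 Foxp3 count, 65.4% (tdTomato+) and 26.7% (tdTomato-) held Cd4. In the tdTomato+ library, cells with 1 Foxp3 count, just inside the rule, had 878 CPM of Ctla4 (CPM is the count of a gene over all cells of a group, scaled to a group total of 1000000), 805 of Ikzf2, 160 of Tnfrsf4 and 166 of Il2ra. Cells with none had 175, 135, 19.6 and 53.0 CPM. The same cells differed in Cd40lg, the helper ligand, with 59.9 CPM at 1 Foxp3 count and 194 at none. In the tdTomato- library, cells with 1 Foxp3 count had 1117 CPM of Ctla4, 419 of Ikzf2, 77.6 of Tnfrsf4, 77.6 of Il2ra and 20.7 of Cd40lg, and cells with none had 271, 130, 21.0, 46.5 and 214 CPM. The Il2ra intervals of these tdTomato- cells overlapped (43.4 to 128 CPM at 1 count, 42.5 to 50.9 at none). Tnfrsf18 overlapped in both libraries, at 173 (113 to 253) and 137 CPM (128 to 148) among tdTomato+ cells and at 150 (100 to 215) and 112 CPM (106 to 119) among tdTomato- cells. The tdTomato- cells with 1 Foxp3 count were also shallow, with a median of 2662 UMIs, and held 5921 CPM of Lyz2. Il2ra was detected in 20% of them and 19.9% of tdTomato- cells with none, and Tnfrsf18 in 36.7% and 48.5%. Ctla4 was detected in 53.3% and 35.7%, Ikzf2 in 46.7% and 36.3%, and Tnfrsf4 in 16.7% and 8.2%. Levels went on to differ above the threshold: Tnfrsf18 was at 541 CPM in the 23 tdTomato+ cells with 5 or more Foxp3 counts, against 173 CPM at 1 count.

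**Figure D1:**
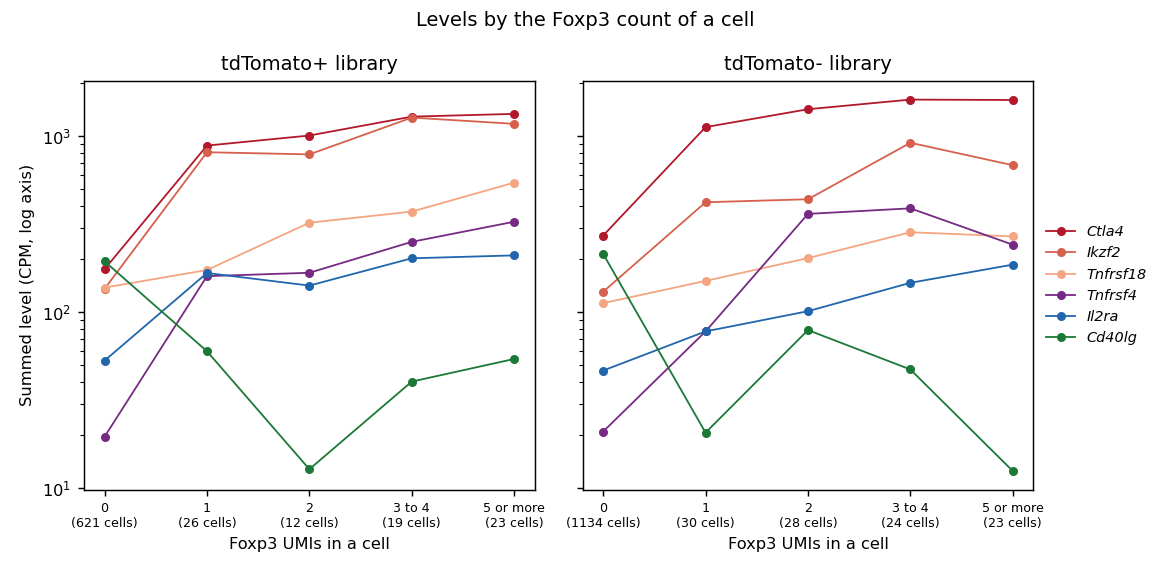
Summed levels in CPM (log axis) of 6 genes in cells with 0, 1, 2, 3 to 4 and 5 or more Foxp3 UMIs, tdTomato+ library on the left and tdTomato- library on the right, with the number of cells under each class. Cells with 0 Foxp3 UMIs also had to hold Cd4. Ctla4 and Ikzf2 stand higher at 1 Foxp3 UMI than at 0 in both panels, while Cd40lg is highest at 0.

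The first question was what else the Foxp3 T cells transcribed relative to the other CD4 T cells of the same library. A gene was called when it had at least 50 CPM in 1 of the 2 groups, a ratio of at least 2 either way, and an exact interval of the ratio that excluded 1. With 1 library per group there was no test, and cells of 1 library are not replicates. Among tdTomato+ cells 289 of 3777 genes (7.65%) were called, of which 179 (4.74%) were higher and 110 (2.91%) lower in Foxp3 T cells. Among tdTomato- cells 357 of 3885 (9.19%) were called, 257 (6.62%) higher and 100 (2.57%) lower. Under the lineage filter 4.81% were higher and 2.86% lower among tdTomato+ cells, and 6.1% and 2.64% among tdTomato- cells. The median log2 ratio over all genes tested was 0.06 in each library under the rule. Macrophage markers summed to 57.2 CPM in Foxp3 T cells and 262 CPM in Cd4 Foxp3-zero T cells of the tdTomato+ sort, to 4905 and 1094 CPM in those of the tdTomato- sort, and to 50.9 and 25.3 CPM in those of the tdTomato- sort under the filter, and their part in the counts was not tested beyond the filter.

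The calls among core regulatory T cell genes are given beside that background as a description. Of 18 genes on the list, 1 of which (Foxp3) the rule used, 13 were abundant enough to be tested in the tdTomato+ library, where 12 were called higher, none lower, and the median log2 ratio was 2.78. In the tdTomato- library 11 of 13 were called higher, none lower, and the median was 2.23, or 2.67 with 12 of 12 called higher under the lineage filter. A gene that reached 50 CPM in 1 group alone could be called only toward that group. Itgae, Nrp1, Tnfrsf4 and Tnfrsf9 did so in both libraries, through the Foxp3 T cells, so they could only be higher. The same held for Capg (311 and 45.2 CPM) and Ikzf4 in the tdTomato+ library. It also held for Il2ra (136 and 46.5 CPM) in the tdTomato- library. Ctla4, Ikzf2 and Tnfrsf18 were above 50 CPM in both groups of each library. The counts of calls and the medians of this list and those below are therefore descriptions. The lists were drawn up with earlier results of these data known.

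Ctla4, an inhibitory receptor that competes with CD28 for its ligands, was at 1171 CPM in Foxp3 T cells and 175 CPM in Cd4 Foxp3-zero T cells of the tdTomato+ library (log2 ratio 2.74, 95% interval 2.60 to 2.88). For tdTomato- cells, Ctla4 was at 1460 and 271 CPM (log2 ratio 2.43, 2.34 to 2.52). The intervals of the levels did not overlap between the cell groups in either library. Ikzf2 (Helios), a transcription factor of the Ikaros family, was at 1052 and 135 CPM among tdTomato+ cells (log2 ratio 2.96) and at 609 and 130 CPM among tdTomato- cells (2.23). Ikzf4 (Eos), a Foxp3 partner of the same family, was at 85.8 and 5.65 CPM among tdTomato+ cells (3.92). On the tdTomato- side, Ikzf4 was at 29.4 and 5.15 CPM, below the level required for a call. Nrp1, a semaphorin receptor carried by many thymus-derived regulatory T cells, was at 226 and 28.1 CPM among tdTomato+ cells (3.01) and at 130 and 22.3 CPM among tdTomato- cells (2.54).

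Some receptors for growth and costimulation signals were called higher, and most genes of their pathways were not. Il2ra, the alpha chain of the IL-2 receptor, was at 189 CPM in Foxp3 T cells and 53.0 CPM in Cd4 Foxp3-zero T cells of the tdTomato+ library (log2 ratio 1.84, 1.51 to 2.15), and at 136 and 46.5 CPM among tdTomato- cells (1.54, 1.27 to 1.81). Tnfrsf4 was at 251 and 19.6 CPM among tdTomato+ cells (3.68) and at 274 and 21.0 CPM among tdTomato- cells (3.71). The intervals of the Tnfrsf4 levels did not overlap between the cell groups of a library. Tnfrsf9 (4-1BB) was at 127 and 23.9 CPM among tdTomato+ cells (2.41) and at 157 and 19.4 CPM among tdTomato- cells (3.02). Tnfrsf18 was at 392 and 137 CPM among tdTomato+ cells (1.51) and at 232 and 112 CPM among tdTomato- cells (1.05). Of 16 genes of TNF receptors and the NF-kB pathway, 4 were called higher and none lower in each library, among 12 and 14 tested, and all 4 were receptors: these 3 and Tnfrsf1b (TNFR2). Of 16 genes of the IL-2 receptor and STAT5 pathway, Il2ra was the 1 called higher in each library. Il7r, Bcl2 and Bcl2l11 were called lower in the tdTomato- library, and no gene of that list was called lower in the tdTomato+ library, where 15 were tested. The receptor Itgae (CD103), which binds E-cadherin on epithelium, was at 55.6 and 2.64 CPM among tdTomato+ cells (log2 ratio 4.4) and at 68.7 and 4.57 CPM among tdTomato- cells (3.91).

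**Figure D2:**
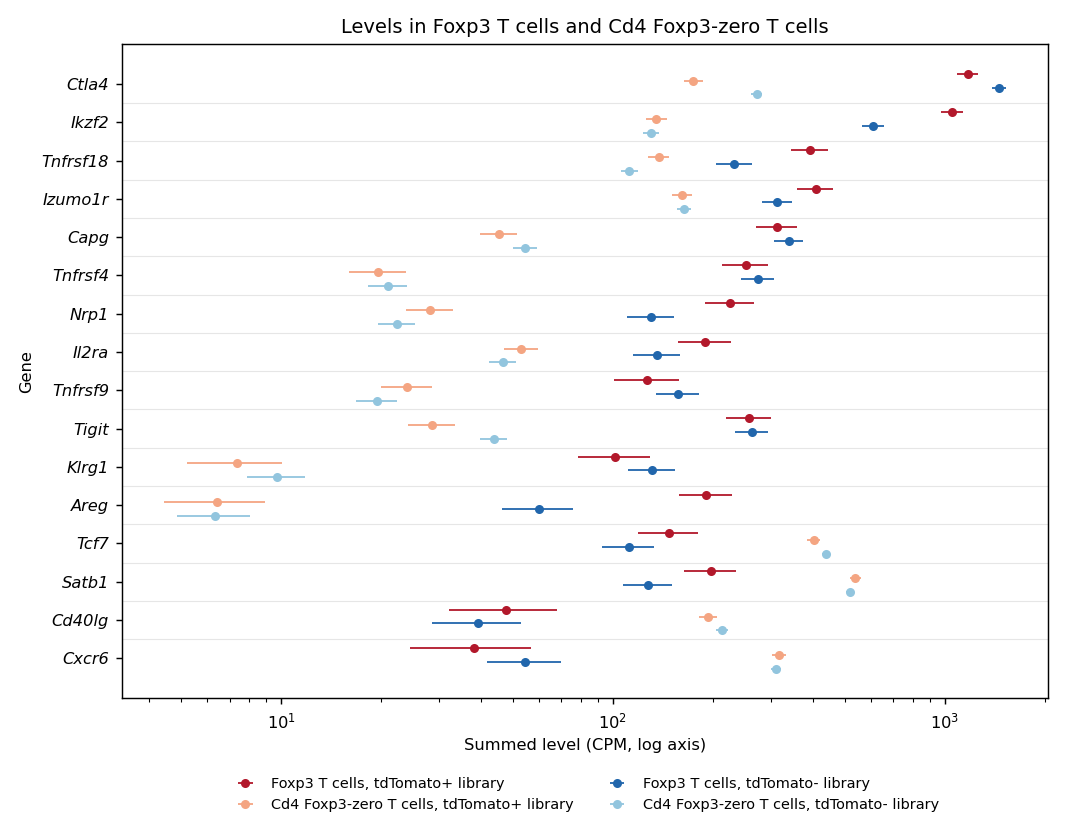
Summed levels in CPM (log axis) of 16 genes in Foxp3 T cells and Cd4 Foxp3-zero T cells without endothelial counts, tdTomato+ library in reds and tdTomato- library in blues; bars are exact Poisson 95% intervals and cover counting error only. The upper 12 genes lie further right in Foxp3 T cells, with Ctla4 at 1171 and 1460 CPM, and the lowest 4 further left.

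Detection per cell gave the same order once each cell was drawn down to 2000 UMIs. Ctla4 was then found in 75.9% of tdTomato+ Foxp3 T cells and 16.9% of Cd4 Foxp3-zero T cells (87.5% and 32.2% before thinning), with 1 and 12 cells left out as too shallow. In the tdTomato- library Ctla4 was found in 76.7% and 20.9% (85.7% and 35.7% before), with 15 and 52 cells left out. Ikzf2 was found in 69.6% and 16.9% of the tdTomato+ cells, and in 58.9% and 15.6% of the tdTomato- cells. Tnfrsf4 was found in 27.8% and 3.45% of the tdTomato+ cells and in 37.8% and 3.14% of the tdTomato- cells. Thus a part of the Foxp3 T cells gave no Tnfrsf4 count at this depth in either library.

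Among 18 suppressor effectors, 4 of 10 tested were called higher in the tdTomato+ library and 5 of 11 in the tdTomato- library, none was called lower, and the medians were 0.81 and 0.71. The 4 of the tdTomato+ library were Il10, Tigit, Nt5e and Areg. Each was under 50 CPM in Cd4 Foxp3-zero T cells and was tested through the Foxp3 T cells alone, so it could only be higher. Il10, an anti-inflammatory cytokine, was at 84.2 CPM in tdTomato+ Foxp3 T cells and 0.565 CPM in Cd4 Foxp3-zero T cells, the second from 3 counts (log2 ratio 7.22, interval 5.59 to 9.54). Only 7 of the 80 cells held Il10, and 1 of them held 28.3% of its counts. For tdTomato- cells, Il10 was at 94.6 and 2.04 CPM (5.53) and was found in 14 of 105 cells. Tigit, an inhibitory receptor, was at 257 and 28.5 CPM among tdTomato+ cells (3.18) and at 262 and 43.8 CPM among tdTomato- cells (2.58). Nt5e (CD73), which makes adenosine outside the cell, was at 126 and 32.8 CPM among tdTomato+ cells (1.94) and at 116 and 31.9 CPM among tdTomato- cells (1.86). Areg, an epidermal growth factor family ligand tied to tissue repair, was at 191 and 6.41 CPM among tdTomato+ cells (4.90) and at 59.8 and 6.31 CPM among tdTomato- cells (3.24). Its counts lay in a minority of the Foxp3 T cells, 31.2% and 16.2% (tdTomato+ and tdTomato-). The costimulator Icos did not reach the 2-fold threshold, at 443 and 252 CPM among tdTomato+ cells (0.81) and at 475 and 291 CPM among tdTomato- cells (0.71). The adenosine pathway enzyme Entpd1 (CD39) was at 49.2 and 41.3 CPM among tdTomato+ cells, and at 81.2 and 53.8 CPM (0.59) among tdTomato- cells.

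Genes of tissue and effector regulatory T cells were called higher in 7 of 16 tested in the tdTomato+ library and in 6 of 16 in the tdTomato- library, and 1, Tbx21, was called lower in each, with medians of 0.88 and 0.69. In the tdTomato+ library Il1rl1, Klrg1, Ccr8 and Prdm1 were tested through the Foxp3 T cells alone and could only be higher, while S100a4 was above 50 CPM in both groups. Il1rl1 was at 73.1 CPM in tdTomato+ Foxp3 T cells and 0.377 CPM, from 2 counts, in Cd4 Foxp3-zero T cells (log2 ratio 7.60, interval 5.66 to 10.69), and was found in 17 of the 80 cells. On the tdTomato- side, Il1rl1 was at 43.7 and 3.21 CPM (3.77), below the level for a call under the rule and called under the lineage filter. Klrg1, a receptor of effector cells, was at 102 and 7.35 CPM among tdTomato+ cells (3.79) and at 131 and 9.71 CPM among tdTomato- cells (3.76). Ccr8, a chemokine receptor of skin and effector regulatory T cells, was at 54.0 and 5.65 CPM among tdTomato+ cells (3.26) and at 78.5 and 4.08 CPM among tdTomato- cells (4.27). Each of these effector genes was seen in a minority of the cells, with Klrg1 in 23.8% and 20% and Ccr8 in 17.5% and 21.9% (tdTomato+ and tdTomato-). S100a4, a calcium-binding protein of activated T cells, was at 742 and 182 CPM among tdTomato+ cells (2.03) and at 703 and 130 CPM among tdTomato- cells (2.43). The repressor Prdm1 (Blimp-1) was at 57.2 and 16.4 CPM among tdTomato+ cells (1.80) and at 63.3 and 20.3 CPM among tdTomato- cells (1.64). Tbx21 (T-bet), the driver of type 1 helper cells, was at 23.8 and 116 CPM among tdTomato+ cells (fell by 2.28 on the log2 scale) and at 34.8 and 116 CPM among tdTomato- cells (fell by 1.73).

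Helper cytokines and naive genes were among those called lower in Foxp3 T cells. Of 14 conventional effector cytokines and ligands, 4 were tested in the tdTomato+ library with 2 called lower, and 5 in the tdTomato- library with 3 called lower and 1, Il17a, called higher. Cd40lg, the signal helper T cells give to B cells, was at 47.7 and 194 CPM among tdTomato+ cells (log2 ratio -2.02) and at 39.2 and 214 CPM among tdTomato- cells (-2.44). Il4, the type 2 cytokine, was at 1.59 and 144 CPM among tdTomato+ cells, the first value from 1 count (-6.50, interval -11.81 to -4.02), and at 2.68 and 100 CPM among tdTomato- cells (-5.23). Ifng was at 194 and 364 CPM among tdTomato+ cells (-0.91, not called, and 0.23 without Zbtb16 and Trav11 cells in the reference) and at 93.7 and 423 CPM among tdTomato- cells (-2.18). Il17a, at 157 and 25.6 CPM among tdTomato- cells (2.61), lay in 10 of the 105 Foxp3 T cells, and 1 cell held 71.6% of it.

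Of 14 naive and recirculation genes, 13 were tested in each library, 6 were called lower in the tdTomato+ library and 7 in the tdTomato- library, and none was called higher, with medians of -0.86 and -1.22. Tcf7 (TCF-1), a factor of naive and memory T cells, was at 148 and 402 CPM among tdTomato+ cells (-1.45) and at 112 and 438 CPM among tdTomato- cells (-1.97). Satb1, a chromatin organizer held low in regulatory T cells, was at 197 and 537 CPM among tdTomato+ cells (-1.45) and at 128 and 518 CPM among tdTomato- cells (-2.02). Against Cd4 Foxp3-zero T cells without counts of Ccr7, the receptor for entry into lymph nodes, an alternative added after the data were seen, Tcf7 was no longer called lower, at log2 ratios of -0.21 (tdTomato+) and -0.82 (tdTomato-). Among tdTomato- cells, the same reference put the log2 ratios of Il2ra (0.79), Tnfrsf18 (0.60), Il7r (-0.67) and Mki67 (0.86) below the 2-fold minimum, against 1.54, 1.05, -1.22 and 1.17 with all Cd4 Foxp3-zero T cells.

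Zbtb16 (PLZF), the master factor of invariant NKT cells, was at 3.18 and 121 CPM among tdTomato+ cells (-5.25) and at 13.4 and 128 CPM among tdTomato- cells (-3.26). It was detected in 1.25% of tdTomato+ and 11.4% of tdTomato- Foxp3 T cells, against 26.6% and 28.2% of Cd4 Foxp3-zero T cells. Cxcr6, a liver homing receptor of such cells, was at 38.1 and 317 CPM among tdTomato+ cells (-3.06) and at 54.4 and 310 CPM among tdTomato- cells (-2.51). Without Zbtb16 and Trav11 cells in the reference, an alternative added after the data were seen, 198 genes were called higher and 68 lower in the tdTomato+ library, against 179 and 110 with them, and 132 of the 179 and 40 of the 110 were kept. In the tdTomato- library 281 were called higher and 93 lower, against 257 and 100, and 221 and 59 of them were kept. Most lower calls of the tdTomato+ library were thus lost without those cells.

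The 2 libraries were separate sorts with separate references, so they could be set side by side. Of genes called higher in the tdTomato+ library, 73 of 179 (40.8%) were also called higher in the tdTomato- library, which is 28.4% of the 257 there, and 62 of 110 called lower (56.4%) were also called lower there, which is 62.0% of 100. Of the genes called higher in the tdTomato+ library and tested in the tdTomato- library, 137 of 139 had a ratio above 1 there, and 88 of 100 called lower had a ratio below 1. These counts are descriptions, since a gene at 50 CPM in only 1 group there, such as Neb, had its direction set by the level required. How many of them were such genes was not counted. Under the lineage filter the shared calls numbered 99 higher and 63 lower. Leaving aside names that occur more than once or could not be set apart, 70 genes were called higher and 57 lower in both. Outside the lists, genes with large ratios in both included Neb, the gene of the muscle protein nebulin, at 77.8 and 3.02 CPM among tdTomato+ cells (4.69) and at 66.9 and 2.33 CPM among tdTomato- cells (4.84). Lamc1, a laminin chain, was at 162 and 12.2 CPM among tdTomato+ cells (3.73) and at 118 and 11.7 CPM among tdTomato- cells (3.34). Dusp4, a MAP kinase phosphatase, was at 57.2 and 7.16 CPM among tdTomato+ cells and at 60.7 and 5.54 CPM among tdTomato- cells (3.45). Ighm, a heavy chain gene, was also called higher in both, at 373 and 127 CPM (1.55) among tdTomato+ cells and at 327 and 121 CPM (1.43) among tdTomato- cells. No other B cell marker of 10 reached the level for a test in either library.

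**Figure D3:**
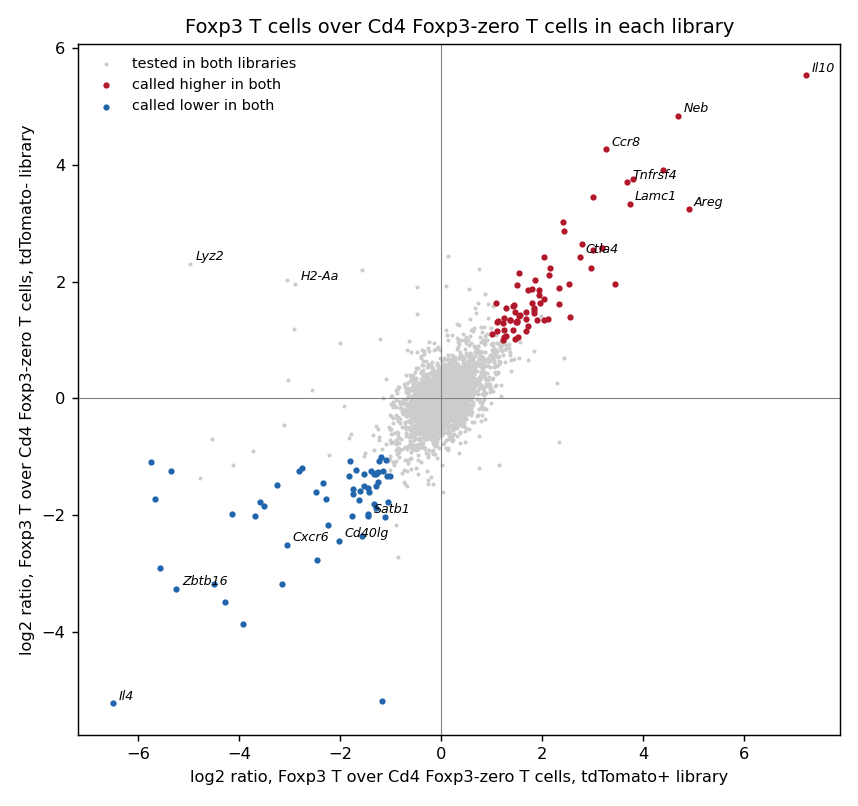
Each point is a gene tested in both libraries, placed by its log2 ratio of Foxp3 T cells over Cd4 Foxp3-zero T cells in the tdTomato+ library (x axis) and in the tdTomato- library (y axis). Genes called higher in both (red) include Il10, Neb and Tnfrsf4, genes called lower in both (blue) include Il4 and Zbtb16, and Lyz2 and H2-Aa lie at the upper left.

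Foxp3 belongs to the forkhead family, so promoters of the shared genes were searched for the forkhead core TGTTTAC on both strands. It was found in 4 of 48 matched genes called higher (8.33%), in 2 of 44 called lower (4.55%), in 3.48% of 2902 genes tested in both libraries, and in 4.05% of all 27025 genes with a RefSeq promoter. The STAT motif TTCNNNGAA was found in 8.33%, 20.5%, 8.86% and 9.55% of the same sets. Motifs of AP-1 (TGANTCA) and Runx factors (TGTGGT) were searched as well. They were found in 12.5%, 15.9%, 6.27% and 8.97%, and in 14.6%, 27.3%, 15% and 18.9%. A gene could have several promoters, with 58 for the 48 genes called higher, 73 for the 44 called lower and 3739 for the 2902 tested. The shares per gene thus rest on unlike numbers of windows. The 4 forkhead matches of genes called higher are shown with the match in capitals, on GRCm38.p6 and read along the gene: Gbp3 (chr3:142559794-142559823, plus strand), an interferon-induced GTPase, Pim1 (chr17:29493003-29493033, plus strand), a kinase induced by cytokines, Prdm1 (chr10:44458961-44458991, minus strand) and Sdcbp2 (chr2:151572520-151572550, plus strand).

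Gbp3: caagctgcactGTAAACAgtggccatctct
Pim1: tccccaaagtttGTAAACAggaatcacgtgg
Prdm1: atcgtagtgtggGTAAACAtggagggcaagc
Sdcbp2: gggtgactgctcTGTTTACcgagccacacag

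The matches are descriptions of these letters, and binding was not measured.

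Next, the Foxp3 T cells of the 2 sorts were compared with each other. Of 15 core genes tested, 1 was called higher in tdTomato+ Foxp3 T cells and none lower. Over all 3944 genes tested 7.05% were called, 53 higher in tdTomato+ Foxp3 T cells (1.34%) and 225 lower (5.7%), and the median log2 ratio was 0.00. The split depended on the cells: with Cd4 required of the Foxp3 T cells 122 were higher and 249 lower (40 of the 53 and 175 of the 225 were kept), and with cells thinned to 2000 UMIs 114 were higher and 202 lower (22 and 83 kept). Batch and sort cannot be told apart in these ratios. Genes of other cells had some of the largest ratios: Lyz2 was at 6.35 CPM in tdTomato+ Foxp3 T cells, against 3592 CPM in tdTomato- ones, and H2-Aa at 7.94 and 1248 CPM. Of 12 macrophage markers, 8 were tested and all 8 were called lower, with summed levels of 57.2 and 4905 CPM. Under the lineage filter the macrophage sums were 57.9 and 50.9 CPM, no macrophage marker reached the level for a test, and 59 genes (1.52%) were called higher and 165 (4.26%) lower.

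Ctla4 was at 1171 CPM in tdTomato+ Foxp3 T cells, against 1460 CPM in tdTomato- ones (log2 ratio -0.32), Tnfrsf4 at 251 and 274 CPM (-0.13, interval -0.41 to 0.16), and Il2ra at 189 and 136 CPM (0.48). Ikzf2 was at 1052 and 609 CPM (0.79, interval 0.63 to 0.94). None of these reached 2-fold. Ikzf4 did, at 85.8 and 29.4 CPM (1.54, 0.89 to 2.21), and it was found in 35.0% and 18.1% of the cells. Areg was at 191 and 59.8 CPM (1.67, 1.23 to 2.13). Gpr15, a homing receptor of the large intestine, was at 54.0 and 16.1 CPM (1.75, 0.89 to 2.66) but came from 9 cells in each library. The same 3 genes were called higher under the lineage filter, with log2 ratios of 1.49, 1.26 and 1.76. These ratios leave out the 270 tdTomato+ Foxp3 T cells with endothelial counts. In those 270, Areg and Gpr15 levels, given below, were under the tdTomato- levels given here, though endothelial RNA was part of their totals. Irf2bp2, a repressor that binds interferon regulatory factor 2, was at 119 and 39.2 CPM (1.60) under the rule, and among Cd4 Foxp3-zero T cells Irf2bp2 had a log2 ratio of 0.95 under the rule, not called, and of 1.08 under the filter, called higher. Isg15 and Irf7, genes of the interferon response, were not called under the rule (0.88 and 0.85) and were called higher under the filter, at 146 and 69.5 CPM (1.07) and at 122 and 47.1 CPM (1.37). In all, 2 of 11 tested interferon response genes were called under the filter and none under the rule.

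Of 12 cell cycle genes, all tested, 7 were called lower under the rule and 10 under the filter, with medians of -1.14 and -1.53. Mki67 was at 156 CPM in tdTomato+ Foxp3 T cells, against 335 CPM in tdTomato- ones (-1.11). Few cells carried this RNA: 5 or more counts of Mki67, Top2a, Cdk1 and Birc5 were found in 5 of 80 tdTomato+ and 12 of 105 tdTomato- cells, and 1 tdTomato+ cell held 49.0% of the Mki67 counts. The log2 ratio of Mki67 was -0.55 with cells thinned to 2000 UMIs, under 2-fold. In Cd4 Foxp3-zero T cells Mki67 was at 145 and 149 CPM (-0.04). Other genes called lower under the filter are given singly. Il17a was at 3.22 and 217 CPM, of which 1 tdTomato- cell held 72.0%, Xcl1 at 9.65 and 181 CPM, of which 1 cell held 77.4%, and Gzmb (granzyme B) at 127 and 309 CPM (-1.28), though with Cd4 required and no filter its log2 ratio was 0.27. Runx3, a factor of cytotoxic T cells, was spread over more cells, 23.4% and 48.1%, and was at 46.6 and 104 CPM (-1.16). Ahr, a receptor for aromatic ligands, was at 28.9 and 65.8 CPM (-1.18). Between the Cd4 Foxp3-zero T cells of the 2 sorts, 621 and 1134 cells, 32 of 3506 genes (0.913%) were called.

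**Figure D4:**
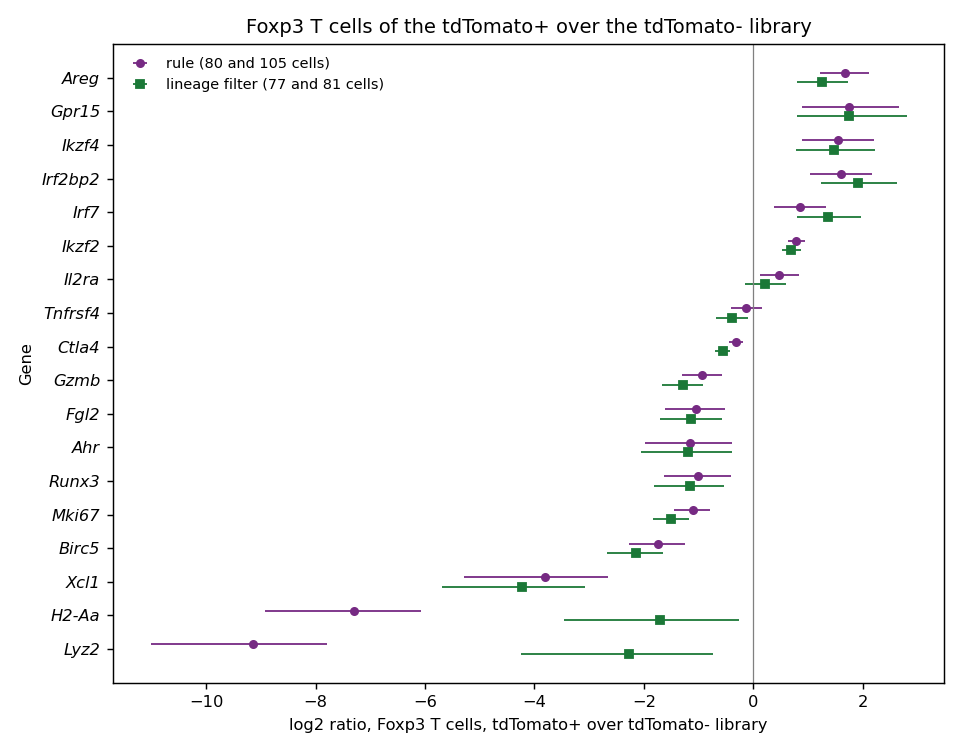
Log2 ratios of 18 genes, Foxp3 T cells of the tdTomato+ over the tdTomato- library, with exact 95% intervals (counting error only), under the rule (circles) and under the lineage filter (squares). Areg, Gpr15, Ikzf4 and Irf2bp2 lie above 1 in both, while the Lyz2 ratio is -9.14 under the rule and -2.27 under the filter.

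In the tdTomato+ library most Foxp3 T cells, 270 of 350 (77.1%, 72.4 to 81.4%), also held endothelial RNA, against 1446 of 2067 Cd4 Foxp3-zero T cells (70.0%, 67.9 to 71.9%). In the tdTomato- library these were 8 of 113 (7.08%) and 129 of 1263 (10.2%). With gates set after thinning to 2000 UMIs, the shares were 58.1% (49.7 to 66.2%) and 52.3% (48.7 to 55.9%) among tdTomato+ cells, with overlapping intervals, and 2.94% and 2.75% among tdTomato- cells. The amounts were not traces. Over the 270 the counts of Stab2, Kdr and Clec4g had a median of 79.5 and a highest value of 364, and 234 of them had 10 or more, whereas none of the 8 tdTomato- cells had over 3. The 270 were deeper too, with a median of 15500.5 UMIs against 6887. Whether these barcodes hold 1 cell or several was not tested.

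With endothelial counts over without, 25.7% of 4665 genes were called, 969 higher (20.8%) and 228 lower (4.89%). All 20 endothelial markers were called higher, with a median log2 ratio of 7.02 and summed levels of 18641.9 and 243 CPM. Gpihbp1, a lipoprotein lipase anchor of capillaries, was at 1376 CPM with and 1.59 CPM without, the second from 1 count (log2 ratio 9.76, interval 7.28 to 15.06). Eng (endoglin) was at 932 and 1.59 CPM, again 1 count (9.20, 6.72 to 14.50), and Mrc1 (CD206), a mannose receptor of sinusoidal endothelium, was at 971 and 3.18 CPM (8.26). Macrophage RNA was also higher, with 7 of 7 tested markers called and sums of 1540 and 57.2 CPM, as were haemoglobin genes, with Hbb-bs at 2571 and 7.94 CPM, 49.9% of it in 1 cell.

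Of 14 tested core regulatory T cell genes, 4 were called lower in the barcodes with endothelial counts and 2, Nrp1 and Swap70, higher, with a median log2 ratio of -0.80 against 0.11 over all genes. The totals of the barcodes with endothelial counts include endothelial RNA. A lower CPM there, or a lower share after thinning, need not mean fewer counts of a gene per barcode. Trac, the receptor alpha constant gene, was at 177 CPM with and 267 CPM without, under 2-fold. Ctla4 was at 679 and 1171 CPM (-0.79), Ikzf2 at 601 and 1052 CPM (-0.81) and Il2ra at 104 and 189 CPM (-0.87). Nrp1, which endothelium also carries, was at 895 and 226 CPM (1.99). Called lower with larger ratios were Gpr15, at 3.66 and 54.0 CPM (-3.88), Areg, at 46.6 and 191 CPM (-2.03), and Il1rl1, at 19.5 and 73.1 CPM (-1.90). Gpr15 was found in 4.07% of cells with and 11.2% of cells without endothelial counts. Drawn down to 2000 UMIs, Ctla4 was detected in 58.6% of cells with and 75.9% of cells without endothelial counts (91.9% and 87.5% before thinning), and Tnfrsf4 in 27.2% and 27.8% (65.2% and 52.5% before).

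**Figure D5:**
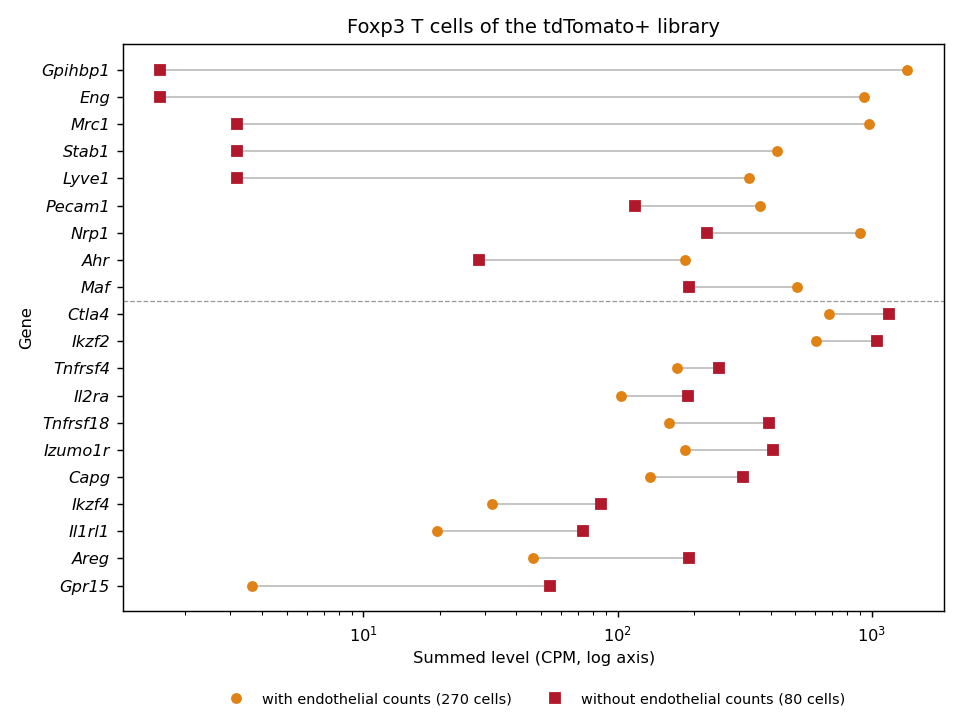
Summed levels in CPM (log axis) of 9 genes called higher (above the dashed line) and 11 others in tdTomato+ Foxp3 T cells with endothelial counts (270 cells, circles) and without (80 cells, squares). Gpihbp1 is at 1376 and 1.59 CPM, and Ctla4 at 679 and 1171 CPM.

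Where both groups carried endothelial counts, Foxp3 T cells still differed from Cd4 Foxp3-zero T cells in core genes such as Ctla4 and Ikzf2. These 2 were above 50 CPM in both groups. Of 4424 genes 59 were called (1.33%), 33 (0.746%) higher and 26 (0.588%) lower, and 8 of 11 tested core genes were among the higher, with a median log2 ratio of 1.66 against 0.04 over all genes. Ctla4 was at 679 CPM in Foxp3 T cells and 129 CPM in Cd4 Foxp3-zero T cells (2.39), Tnfrsf4 at 171 and 17.1 CPM (3.32), Tigit at 131 and 19.6 CPM (2.74) and Ikzf2 at 601 and 122 CPM (2.30). Tnfrsf4 and Tigit were under 50 CPM in the Cd4 Foxp3-zero T cells, so they could only be called higher. How many of the 8 core genes were of this kind was not counted. Nrp1 was not among the genes called, at 895 and 759 CPM (0.24). Endothelial markers gave summed levels of 18641.9 and 18323.8 CPM, and none of 20 was called. Of the 33 genes called higher, 29 were also called higher without endothelial counts (87.9% of the 33, 16.2% of the 179).

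The alpha and beta receptor genes of the Foxp3 T cells were varied. In the 80 tdTomato+ cells, 56 Trav genes were detected in 69 cells and 17 Trbv genes in 72 cells, and in the 105 tdTomato- cells 65 Trav genes in 91 cells and 20 Trbv genes in 94 cells. The largest share of Trav counts held by 1 gene was 10.2% and 12.6%, and of Trbv counts 17.8% and 17.2% (tdTomato+ and tdTomato-). Trbv12-2 was the beta gene found in most cells, 17 of 80 and 25 of 105. It was also the one found in most Cd4 Foxp3-zero T cells, 168 of 621 and 378 of 1134. Trac was at 267 and 220 CPM in tdTomato+ Foxp3 T cells and Cd4 Foxp3-zero T cells (0.28), and at 213 and 212 CPM among tdTomato- cells (0.01).

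Gamma-delta contigs were found in 0 of 80 tdTomato+ Foxp3 T cells without endothelial counts, which allows up to 3.75%, in 1 of 270 with them (0.370%), and in 1 of 105 tdTomato- cells (0.952%). The rule left out cells with 2 or more Trdc counts, so few were possible, and Cd4 Foxp3-zero T cells, gated alike, had them in 1 of 621 (0.161%) and 18 of 1134 cells (1.59%). Among cells with at least 2 Trdc counts, contigs were found in 107 of 449 tdTomato+ (23.8%) and 1876 of 7172 tdTomato- cells (26.2%). These shares, and the limit of 3.75%, are thus for recovered contigs. A cell without a contig may still carry a gamma-delta receptor. Both contigs of Foxp3 T cells were delta chains of TRDV2-2 and TRDJ1, from mouse chromosome 14, with 4 and 9 contig UMIs. Their junctions, shown since they are the only gamma-delta contigs found in these cells, differed.

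tdTomato+: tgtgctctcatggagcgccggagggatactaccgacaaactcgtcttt
tdTomato-: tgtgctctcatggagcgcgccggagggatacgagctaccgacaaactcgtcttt

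The tdTomato+ cell had 17 counts of Trac and Trbc genes together, 42 of Ctla4 and 1 of Foxp3. The tdTomato- cell had 3, 1 and 2.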

How the data were processed

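CD45+ liver cells of 1 tdTomato+ and 1 tdTomato- sort were profiled by droplet 5' sequencing. The deposited matrices hold UMI counts for each gene in each barcode. The authors made them by Cell Ranger on mm10 (software version 10.0.0 in the matrix headers), for 33696 genes. The deposited contig tables give UMI counts per gamma-delta receptor contig. The values are not normalized, and filters applied before deposit are not given in the sources used here.

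Counts were summed over the cells of a group and divided by the group's total to give CPM. Ratios carry exact conditional binomial intervals, levels exact Poisson intervals and shares exact Clopper-Pearson intervals, all at 95% and for counting error only. A group at 0 was set to a floor of 3 counts over the group. There is 1 library per sort, so no test was run, and PCR and cell-to-cell spread are not covered. No doublet caller was run, and doublets were limited only by the gates and the lineage filter, which left out cells with 5 or more counts of Lyz2 and C1q genes, 20 or more of Cd74, H2-Aa and H2-Ab1, or none of Trac, Trbc1 and Trbc2. The filter was chosen after seeing the data. Members and gene lists were chosen with earlier results of these data known. Genes named were members of 13 function and 10 marker lists, and the 10 called genes with the largest ratio each way with a count in at least 10% of cells of the higher group. The calls were tested on simulated data: for 3574 genes in the tdTomato+ and 3560 in the tdTomato- comparison, 100% and 98% of 4-fold lower genes were called, and no unchanged gene. The simulated counts had counting error only, as the intervals assume. They therefore give no measure of calls that arise from spread between cells. Alternatives were other gates, minimum levels, thinning to 2000 UMIs and other references. A planned split of the Foxp3 T cells and 1 planned reference are not reported here. Promoters came from RefSeq (GRCm38.p6). Intervals were computed in scipy 1.17.1, tables in pandas 2.3.3 and numpy 2.4.6, and plots in matplotlib 3.10.9 (Python 3.11.15).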

Additional observations from a re-analysis of the deposited data

Results flagged for a closer look

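7 genes were called in opposite directions in the comparison of Foxp3 T cells with Cd4 Foxp3-zero T cells, and the difference between the libraries was not tested. This holds for the rule: under the lineage filter Cdk8 alone of the 7 was called in opposite directions, and the other 6 were called in neither library. Lyz2 had a log2 ratio of -4.98 in the tdTomato+ library and 2.30 in the tdTomato- library. Tyrobp had -2.92 and 1.20, and Fcer1g had -1.21 and 1.01. The MHC class II genes H2-Aa and H2-Eb1 had -2.90 and -3.06 in the tdTomato+ library, against 1.96 and 2.02 in the tdTomato- library. Ifitm3, an interferon-induced membrane protein that was named after its values were seen, had -1.58 and 2.19. Cdk8 had 1.15 and -1.15, and 1 tdTomato+ Foxp3 T cell held 58.9% of its counts.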

How the results depend on the processing

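The comparisons had 289 called genes (Foxp3 T over Cd4 Foxp3-zero T cells, tdTomato+), 357 (the same, tdTomato-), 278 (tdTomato+ over tdTomato-), and 1197 (with over without endothelial counts). At a minimum of 100 CPM these counts were 135, 179, 105 and 651, and with no minimum 1065, 1597, 1045 and 2835. The tdTomato+ count was 59 where both groups had endothelial counts, an alternative added after seeing the data. The Foxp3 share was 8.0% (tdTomato+) and 6.203% (tdTomato-) with at least 2 Foxp3 counts, 8.81% and 4.87% with Cd4 required, and 14.6% (tdTomato+) with gates set after thinning. Signs of called ratios turned only where the reference was chosen to lack the gene: Ccr7 (7.10 and 8.02) and Zbtb16 (4.80, tdTomato-). Signs of uncalled ratios turned for Mki67 in the tdTomato+ library (0.10, against -0.46 without Ccr7 cells in the reference and -0.77 without the deepest cell), for Il7r there (-0.74, against 0.03 without Ccr7 cells), and for Ifng, Il10 and Gzmb under some settings. The cause of the other shifts was not tested. Foxp3 T and Cd4 Foxp3-zero T cells were compared within each library, and the 2 sorts, which are different groups in different batches, were not used as replicates of each other. Genes seen in few cells, such as Il10 and Gpr15, rest on those few cells.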
